A study of Mus musculus with 30 samples.

Results

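RNA was compared between mouse lymphoma lines that had been evolved under pulses of paclitaxel and lines carried through the same cycles with DMSO, the solvent of the drug. All lines descend from 1 Eµ-Myc; p19ARF -/- cell line, in which an immunoglobulin heavy chain enhancer drives Myc in B-lineage cells and p19ARF, an activator of p53, is missing, so the DMSO lines carry both lesions too. Each line was grown in its own well and is a single evolved population, so 1 library stands for 1 line. The comparison held 27 of the 30 libraries, namely the 11 titled DMSO 1 to DMSO 11 and all 16 titled Pac except Pac H9. The libraries labelled DMSO 12, Pac H9 and Parental were left out, because fold changes listed by the study matched the counts better when every label from DMSO 12 on was moved by 1 library, and that move would change the class of these 3 libraries only. The libraries were therefore chosen by fold changes of this same contrast. For that reason all genes were also fitted by the deposited labels, with 12 DMSO and 17 paclitaxel libraries, which made no such choice, and values of that fit are given where it ended a call, for the genes that lay beyond the DMSO range in all 16 paclitaxel libraries and for some others. A paclitaxel library is named here by the label it carries, and under the move its line name would be that of a neighbour while its class would stay the same.

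Paclitaxel binds β-tubulin and stabilizes microtubules, which holds cells in mitosis and kills many of them. Cells that survive long exposure are known to pump the drug out through P-glycoprotein, the product of Abcb1a and Abcb1b in mice, to alter their tubulins or mitotic checkpoint, or to shift the balance of BCL2 family proteins that decide on apoptosis. Lines evolved in parallel need not share any of these changes, and the question asked of these data was which expression changes most paclitaxel lines had in common.

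Counts of 3′-end tags summed to between 1053948 and 6739131 per DMSO library (median 4235788) and to between 480919 and 6682169 per paclitaxel library (median 3680326.5). The mean of log10 totals was 6.58 ± 0.234 (SD, n = 11) in DMSO and 6.44 ± 0.309 (SD, n = 16) in paclitaxel libraries, a difference within that spread (two-sided permutation test, 100000 resamples, p = 0.215). Mitochondrial transcripts took 12.4% of the counts in DMSO 11, 11.9% in Pac D4 and 10.1% in Pac C11, and at most 7.39% in the other 24 libraries. On the first principal component (24.8% of the variance) DMSO 11 lay at 51.7 among 6 paclitaxel libraries at 41.2 to 86.9 (Pac F10, Pac C11, Pac D4, Pac A6, Pac G9 and Pac D7 in falling order), and every other library lay at -2.47 or below. All 8 B cell markers checked were detected, their summed level was 2712 to 5108 CPM in DMSO and 1684 to 3978 CPM in paclitaxel libraries, and 1 of them, Cd79b, was called lower. CPM stands for tags per 1000000 tags. The summed levels of 8 T and NK cell markers ran from 1.76 to 13.5 CPM in DMSO and from 0 to 23.98 CPM in paclitaxel libraries, those of 7 myeloid markers from 2.88 to 28.6 and from 4.53 to 52.3 CPM, and those of 5 plasma cell markers from 2.79 to 9.44 and from 0.851 to 16.2 CPM. The 3 erythroid and 3 fibroblast markers summed to under 1 CPM in every library, but the globin gene Hbb-bt, which was not among them, ran from 7.03 to 73.8 CPM in DMSO and from 4.29 to 255 CPM in paclitaxel libraries, and its part in the results was not tested. Cd3e, Cd4, Nkg7, S100a8, S100a9, Adgre1, Col3a1 and Dcn had 0 counts in all 27 libraries.

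Of 9567 genes tested with edgeR, 158 (1.65%) were called higher and 163 (1.7%) lower in the paclitaxel lines at an adjusted p under 0.01. The test was made on counts with TMM scaling, a correction for differences in library composition. The levels printed and set against the DMSO range are CPM after that scaling. A change was taken as shared by most lines when a called gene lay beyond every one of the 11 DMSO libraries in at least 9 of the 16 paclitaxel libraries. This held for 130 genes that rose (1.36% of those tested), with a median log2 fold change of 1.04, and for 131 genes that fell (1.37%), with a median of -0.95. Called or not, 400 of the 9567 tested genes lay above every DMSO library in at least 9 paclitaxel libraries, and 521 lay below. At least 2-fold changes made up 90 of the higher and 77 of the lower calls. At an unadjusted p under 0.05 there were 2438 genes. A further 28 higher and 32 lower calls were carried by 8 libraries or fewer. Over all tested genes the median log2 fold change was 0.07 and 55.7% lay above 0. By the deposited labels 94 genes were called higher and 114 lower of 9445 tested, and 89 of the 158 and 108 of the 163 were called in the same direction in both fits. Among the genes shared by most lines, 75 of 130 and 93 of 131 were also called by the deposited labels. The p-values measure the spread between lines, and which library was in which of the 2 sequencing subpools is not given in the sources used here, so its part was not tested.

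**Figure D1:**
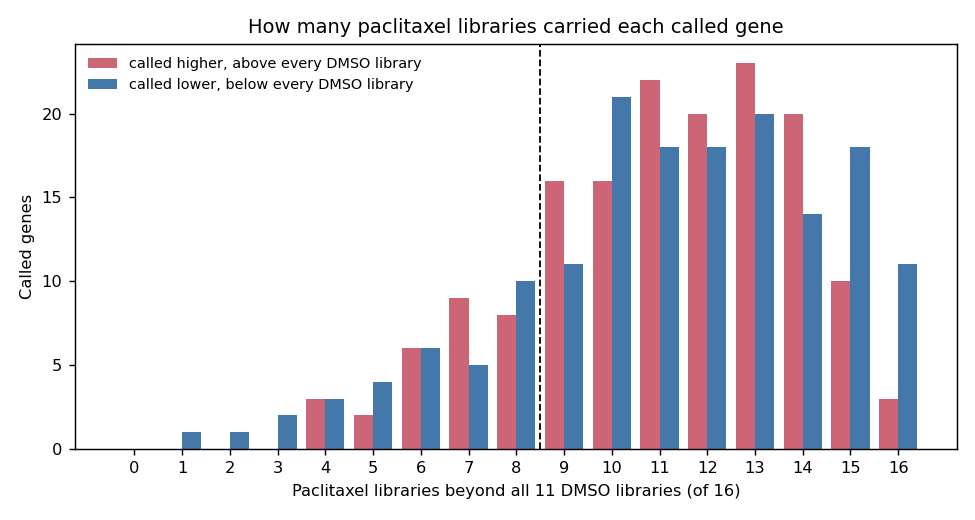
Number of called genes (vertical axis) by how many of the 16 paclitaxel libraries lay beyond all 11 DMSO libraries in the called direction (horizontal axis), for genes called higher (red) and lower (blue), with the dashed line at the border of 9 libraries. Most called genes sit to the right of the line, 130 higher and 131 lower, with 3 and 11 genes at 16 of 16.

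Among all tested genes 11 (0.115%) lay below every DMSO library in each of the 16 paclitaxel libraries, and all 11 were called lower. Positions below are those of the whole gene on GRCm38, of which the tags sample the 3′ end of the transcript. The 11 comprised genes that were nearly absent from the paclitaxel libraries and genes that kept a reduced level. Maoa (chrX:16619698-16687818, plus strand), which encodes the monoamine oxidase that breaks down serotonin and noradrenaline, was among the first kind. Its level ran from 32.1 to 75.5 CPM in the DMSO libraries (median 52.3) and from 0 to 1.03 CPM in the paclitaxel libraries (median 0). Pooled over lines it had 2256 counts in DMSO against 10 in paclitaxel, a ratio of 283 with a counting interval of 154 to 591 (exact 95% limits, counting error only). Pac B2 held 4 of the 10, and without it the ratio was 439 (201 to 1198). The fitted log2 fold change was -7.94 ± 0.39 (SE, edgeR quasi-likelihood test, adjusted p = 5.52e-16). Of the libraries left out, Pac H9 held 17.2 CPM, DMSO 12 held 2.03 CPM and Parental 48.2 CPM, and with the deposited labels the log2 fold change was -6.16 (adjusted p = 4.03e-07).

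Zfp979 (chr4:147611937-147642513, minus strand), a zinc finger gene, ran from 20.6 to 46.1 CPM in DMSO and from 0 to 0.637 CPM in paclitaxel libraries, a pooled ratio of 225 (114 to 523). Lipo3 (chr19:33555160-33761951, minus strand), a member of the acid lipase family, had 774 counts in the DMSO libraries and 2 in the paclitaxel libraries, 1 each in Pac A6 and Pac C1. The ratio was 486, with counting limits of 134 to 4018. AW209491 (chr13:14630154-14639096, plus strand) had a pooled ratio of 91.1 (55.8 to 160), but it overlaps Psma2 on the same strand and its counts are uncertain for that reason. Lipo3 and Zfp979 belong to families of similar genes, between which the counting could divide tags. Maoa and these 3 genes each had 0 counts in at least 11 of the 16 paclitaxel libraries and at least 26 counts in every DMSO library. With the deposited labels, which count Pac H9 at 16.3, 20.8 and 18.1 CPM among the paclitaxel lines, their log2 fold changes were smaller, at -5.65 in place of -7.58 for Zfp979, -4.52 in place of -7.97 for Lipo3 and -4.88 in place of -6.42 for AW209491, and all 3 stayed called. Without Pac E1, which held 7 of the 16 paclitaxel counts of AW209491, the ratio of that gene was 149.8 (78.7 to 328.5). Lipo3 rested on so few paclitaxel counts that leaving out Pac A6 or Pac C1 raised its ratio to 917 or 963.

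Rsph1 (chr17:31255019-31277383, minus strand), a part of the radial spokes of motile cilia, ran from 11.5 to 209 CPM in DMSO (median 65.4) and from 0 to 8.502 CPM in paclitaxel libraries (median 0.964), a log2 fold change of -5.62 ± 0.50. Hsd17b11 (chr5:103989762-104021919, minus strand), a dehydrogenase of steroids that sits on lipid droplets, ran from 14.4 to 249 CPM in DMSO (median 109) and from 0 to 13.8 CPM in paclitaxel libraries (median 1.54), a log2 fold change of -5.13 ± 0.56. The DMSO lines themselves differed more than 10-fold for both genes, with DMSO 5 lowest, and still did not overlap the treated lines. With the deposited labels the log2 fold changes were -5.33 for Rsph1 and -4.20 for Hsd17b11 (edgeR adjusted p of 1.52e-07 and 2.33e-04). Mid1ip1, which regulates acetyl-CoA carboxylase in fatty acid synthesis, ran from 13.5 to 27.1 CPM in DMSO and from 0 to 12.2 CPM in paclitaxel libraries (log2 fold change -2.82 ± 0.50, adjusted p = 5.16e-04, and -2.62 with the deposited labels). Fabp4, a carrier of fatty acids, lay below every DMSO library in 15 of 16, at 6.74 to 419 CPM in DMSO (median 35.99) against 0 to 17 CPM (median 0.422), with Pac C1 the exception at 17 CPM, from 8 counts in the shallowest library. Its log2 fold change was -6.07, and -5.67 with the deposited labels.

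The other genes without overlap kept a sizeable level. Gsto1, an omega-class glutathione transferase, ran from 174 to 318 CPM in DMSO and from 65.7 to 170 CPM in paclitaxel libraries (log2 fold change -1.13 ± 0.15, adjusted p = 7.45e-06). Cbll1, an E3 ubiquitin ligase, ran from 37.4 to 56.5 CPM and from 13.1 to 35.4 CPM, Fam111a, a protease that acts at replication forks, from 326 to 450 CPM and from 104 to 299 CPM, and Cwf19l1 from 65.5 to 106 CPM and from 18.7 to 62.1 CPM. Their log2 fold changes were -0.93 ± 0.15, -0.82 ± 0.14 and -0.84 ± 0.15. The deposited labels gave -0.79, -0.74 and -0.73 for these 3, and -1.11 for Gsto1, with edgeR adjusted p of 0.00331 or below. Gsto1, Fam111a, Cwf19l1 and Lipo3 lie on chromosome 19, whose genes were lower as a whole, as given below.

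Only 3 genes (0.0314% of those tested) lay above every DMSO library in all 16 paclitaxel libraries. Ccdc181 (chr1:164275585-164287847, plus strand), which encodes a coiled-coil protein, ran from 1.01 to 6.53 CPM in DMSO (median 3.91) and from 7.06 to 33.8 CPM in paclitaxel libraries (median 15.4), a log2 fold change of 2.17 ± 0.28 (adjusted p = 7.98e-06). Mpnd (chr17:56005711-56016790, plus strand), a protein of the MPN domain family, ran from 12.1 to 27.2 CPM and from 27.9 to 69.7 CPM (1.17 ± 0.16). Dus2 (chr8:105991337-106053840, plus strand), which makes dihydrouridine in tRNA, ran from 11.1 to 22.2 CPM and from 22.6 to 57.6 CPM (1.02 ± 0.15). With the deposited labels the log2 fold changes of Ccdc181, Mpnd and Dus2 were 1.79, 1.06 and 0.86, and the highest edgeR adjusted p of the 3 was 0.00408. For Mpnd and Dus2 the highest DMSO and the lowest paclitaxel library nearly met. Mpnd overlaps Sh3gl1 and Dus2 overlaps Ddx28 on opposite strands, and neither partner was called.

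A pair of genes went from near absence to expression. Gpr65 (chr12:98268635-98276644, plus strand), a receptor that senses acid outside the cell, had 7 counts over the 11 DMSO libraries, which gave at most 1.501 CPM in any of them, and 859 counts over the 16 paclitaxel libraries, where it ran from 0.475 to 44.0 CPM (median 11.2). The pooled ratio was 97.8 (47.3 to 244) and 15 of 16 libraries lay above the DMSO range, but the deposited labels, under which DMSO 12 counts as a control at 23.8 CPM, gave a log2 fold change of 3.14 in place of 6.37 and raised the adjusted p from 1.34e-06 to 0.0173 (edgeR quasi-likelihood test). Sgip1 (chr4:102741297-102973628, plus strand), an adaptor of clathrin-mediated endocytosis, had 6 counts in the DMSO libraries, all in DMSO 5, and 523 in the paclitaxel libraries, where it ran from 0 to 28.2 CPM (median 9.95), a ratio of 69.5 (31.7 to 190). It lay above the DMSO range in 15 of 16 libraries and had 0 counts in Pac C1, the shallowest, where low expression and absence cannot be told apart. With the deposited labels its log2 fold change was 4.61 (adjusted p = 1.35e-04). Without DMSO 10, which held 3 of the 7 DMSO counts of Gpr65, the log2 fold change of that gene was 7.03. Without DMSO 5 that of Sgip1 was 8.22, with 523 paclitaxel counts against 0 in the other 10 DMSO libraries.

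Abcb1b (chr5:8798147-8866315, plus strand), the P-glycoprotein gene expressed here, ran from 16.3 to 46.0 CPM in DMSO (median 32.3) and from 41.7 to 255 CPM in paclitaxel libraries (median 83.6), a log2 fold change of 1.64 ± 0.22 (adjusted p = 1.31e-05), with 15 of 16 libraries above the DMSO range. With the deposited labels it was 1.448 (edgeR adjusted p = 3.49e-04). Its close copy Abcb1a had 0 counts in the DMSO libraries and 3 in the paclitaxel libraries together, at which depth no difference was detectable. Limd2, a LIM domain gene, ran from 7.87 to 32.7 CPM and from 30.5 to 364 CPM (2.62 ± 0.36), with a log2 fold change of 1.99 without the 6 libraries of high first component. Smaller increases carried by 15 of 16 libraries were those of Chchd3, a part of the complex that shapes mitochondrial cristae (0.88 ± 0.13), H3f3b, which encodes histone H3.3 (0.92 ± 0.14), Nat9 (0.94 ± 0.15), Dcaf4, a substrate receptor of CUL4 ubiquitin ligases (0.92 ± 0.18), and Rnf2, the catalytic ligase of Polycomb repressive complex 1 (0.61 ± 0.14). H3f3b has processed copies elsewhere in the genome, with which it may share tags. In Rnf2 the remaining library, Pac F10, lay below every DMSO library, and its call was lost without DMSO 1, DMSO 2, DMSO 8 or DMSO 9 (edgeR adjusted p up to 0.0133).

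**Figure D2:**
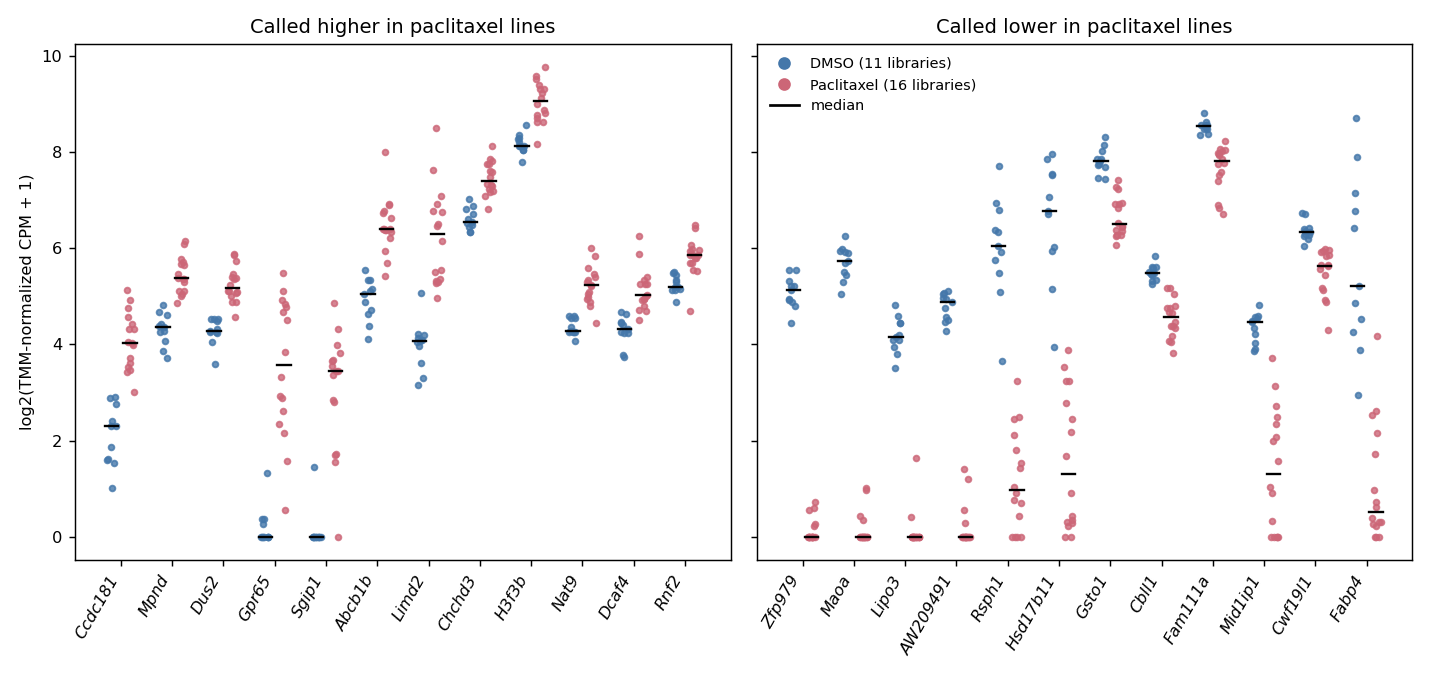
TMM-normalized level, log2(CPM + 1), of 12 genes called higher (left) and 12 called lower (right) that the most paclitaxel libraries carried beyond the DMSO range, with 1 point per library (blue, 11 DMSO; red, 16 paclitaxel) and black lines at medians. Maoa, Zfp979, Lipo3 and AW209491 sit at or near 0 in the paclitaxel libraries, Gpr65 and Sgip1 at or near 0 in most DMSO libraries, and the 2 groups of Ccdc181, Mpnd and Dus2 do not overlap.

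The promoters of Maoa and Hsd17b11, which lay below every DMSO library in all 16 paclitaxel libraries, and of the pair that rose from near absence are printed to set their sequence beside their levels. The sequences are those of RefSeq on GRCm38.p6, 250 bases before to 50 after the listed start, 5′ to 3′ on the gene's strand. Maoa is at chrX:16619448-16619747 (plus strand), Hsd17b11 at chr5:104021747-104022046 (minus), Gpr65 at chr12:98268385-98268684 (plus) and Sgip1 at chr4:102759885-102760184 (plus), a start that lies inside the gene as bounded above. Capitals mark GC boxes (GGGCGG) and CCAAT boxes (CCAAT) on either strand, the only ones of 5 motifs searched that these windows held.
Maoa: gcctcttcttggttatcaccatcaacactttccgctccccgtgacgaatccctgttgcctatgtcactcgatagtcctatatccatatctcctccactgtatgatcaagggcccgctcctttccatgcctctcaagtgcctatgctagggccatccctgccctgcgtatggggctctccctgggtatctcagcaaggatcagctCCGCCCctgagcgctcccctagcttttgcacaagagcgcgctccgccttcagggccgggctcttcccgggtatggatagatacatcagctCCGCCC
Hsd17b11: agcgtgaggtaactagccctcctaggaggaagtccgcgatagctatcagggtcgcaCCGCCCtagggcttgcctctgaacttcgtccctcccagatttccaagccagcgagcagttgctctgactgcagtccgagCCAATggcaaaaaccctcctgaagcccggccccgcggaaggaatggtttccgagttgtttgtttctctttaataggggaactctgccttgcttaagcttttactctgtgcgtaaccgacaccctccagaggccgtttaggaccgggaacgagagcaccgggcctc
Gpr65: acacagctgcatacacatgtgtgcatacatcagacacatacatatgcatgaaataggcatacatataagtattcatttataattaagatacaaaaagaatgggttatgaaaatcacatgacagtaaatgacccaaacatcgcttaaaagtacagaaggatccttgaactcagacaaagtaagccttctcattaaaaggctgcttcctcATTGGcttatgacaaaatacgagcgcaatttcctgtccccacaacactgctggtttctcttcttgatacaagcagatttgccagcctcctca
Sgip1: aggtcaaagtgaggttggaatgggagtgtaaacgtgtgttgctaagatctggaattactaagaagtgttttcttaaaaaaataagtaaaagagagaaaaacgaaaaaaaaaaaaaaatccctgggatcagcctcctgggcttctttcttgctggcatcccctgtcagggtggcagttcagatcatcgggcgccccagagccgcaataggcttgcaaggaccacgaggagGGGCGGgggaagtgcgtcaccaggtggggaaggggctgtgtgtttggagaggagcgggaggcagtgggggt
The Maoa window held 14 CpG dinucleotides and the Hsd17b11 window 18, against 3 in that of Gpr65 and 9 in that of Sgip1. The ratio of observed to expected CpG was 0.602, 0.742, 0.282 and 0.524. A promoter was listed for 106 of the 130 genes higher in most lines, whose median ratio was 0.802, for 109 of the 131 lower genes (0.672) and for 7259 of the tested genes (0.802). The GC box stood in 64.2% of the promoters of higher genes and in 65.1% of those of lower genes, against 66.3% over tested genes and 35.9% over all 27025 promoters. The CCAAT box stood in 36.8% and 41.3%, against 40.3% over tested genes and 37.9% over all promoters. For the E-box (CACGTG) the shares were 11.3% and 11%, against 11.2% and 7.24%, for the cAMP response element (TGACGTCA) 4.72% and 4.59%, against 3.73% and 1.88%, and for the core of the interferon-stimulated element (GAAANNGAA) 9.43% and 9.17%, against 7.19% and 8.57%. Each share of the changed genes lay within 4 percentage points of that of the tested genes. The deposited tags lie at transcript ends and say nothing about which start was used.

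The called genes were unevenly spread over the chromosomes. Chromosome 19 held 50 of the 163 lower calls, 13.9% of its 359 tested genes against 1.7% of all tested genes, and 81.6% of its tested genes had a negative log2 fold change (median -0.41). Chromosome 9 held 27 lower calls (5.08% of 532) and 1 higher call, with 69.6% of its tested genes negative and a median of -0.18. Chromosome 11 held 26 of the 158 higher calls (3.21% of 811). Its 117 tested genes from 110 Mb to the distal end held 9 of these (7.69%) and no lower call, with a median log2 fold change of 0.55, while the 694 before that point had a median of 0.11. Outside chromosomes 9 and 19 and distal chromosome 11, 8559 tested genes held 146 higher (1.71%) and 86 lower calls (1%). The lower calls there had a median log2 fold change of -1.31, against -0.91 for those on chromosome 19 and -0.76 for those on chromosome 9. DNA was not measured in these samples.

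For each library the median over a chromosome's genes was taken of the log2 difference from the DMSO mean, for genes with a mean of at least 20 CPM and centred on the library's median over all genes. Over the 219 genes of chromosome 19 this median ran from -0.06 to 0.17 in the DMSO libraries and from -0.63 to -0.09 in the paclitaxel libraries, and all 16 lay below every DMSO library. The group means differed by -0.44 (two-sided permutation test, 100000 resamples, p = 2e-05, the smallest these resamples give, adjusted p = 0.0004 over 20 chromosomes), and by -0.38 with the deposited labels (adjusted p = 0.0004). The paclitaxel libraries nearest to 0 were Pac C3 at -0.09, Pac D4 at -0.14 and Pac E1 at -0.19, and the other 13 lay at -0.34 or below. Of the left-out libraries, DMSO 12 lay at -0.55, Pac H9 at -0.27 and Parental at -0.10. Without the 6 libraries of high first component the difference was -0.48.

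The decrease ran along most of chromosome 19 but not evenly in every line. Before 20 Mb the paclitaxel libraries had a median of -0.54 over 108 genes, and from 40 Mb on a median of -0.52 over 70 genes. Over the 41 genes between 20 and 40 Mb, Pac C11 lay at 0.26, Pac D4 at 0.18 and Pac F10 at 0.17, while before 20 Mb the same libraries lay at -0.73, -0.45 and -0.51. Pac H4 and Pac E2 lay at -0.74 and -0.79 in that stretch. DMSO 11 was at 0.54 there, above the other DMSO libraries, whose highest was DMSO 8 at 0.27.

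On chromosome 9 the DMSO libraries were themselves divided. Over its 295 genes DMSO 1, DMSO 2, DMSO 5, DMSO 7 and DMSO 9 lay between -0.27 and -0.23, DMSO 6 at -0.04, and DMSO 3, DMSO 4, DMSO 8, DMSO 10 and DMSO 11 between 0.23 and 0.38, with Parental at 0.23. The paclitaxel libraries all lay on the lower side, from -0.35 to -0.10, and 7 of 16 were below every DMSO library. The means differed by -0.26 (permutation test, adjusted p = 0.01) and by -0.23 with the deposited labels (adjusted p = 0.0221). The paclitaxel lines thus shared a level that 5 of the 11 DMSO lines had too.

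Distal chromosome 11 was higher in most lines, but to unlike extents. Over its 60 genes the DMSO libraries lay between -0.20 and 0.08, and 14 of 16 paclitaxel libraries lay above them. Pac B2, Pac C11, Pac D4, Pac D10, Pac E2, Pac F10, Pac H1, Pac H3 and Pac H4 lay between 0.44 and 1.01, Pac A6, Pac D7, Pac E1, Pac G9 and Pac H8 between 0.11 and 0.20, and Pac C1 and Pac C3 at -0.18 and -0.01. H3f3b and Nat9, above, lie in this stretch. The libraries at 0.11 to 0.20 were not raised along the whole of it. From 110 to 120 Mb Pac A6 and Pac E1 lay at -0.003 and 0.04, within the DMSO range. From 120 Mb on Pac D7, Pac G9 and Pac H8 lay at 0.04, 0.14 and 0.12, below DMSO 9 at 0.18. Pac D4 was also raised before 110 Mb, at 0.36. Over all of chromosome 11 the means differed by 0.08 (permutation test, adjusted p = 0.0313), and with the deposited labels by 0.07 (adjusted p = 0.0738).

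**Figure D3:**
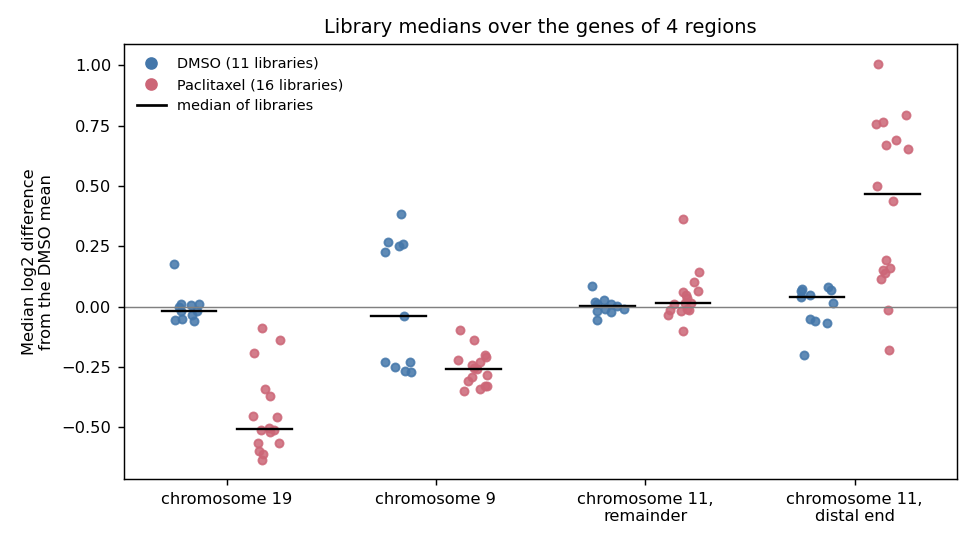
Median log2 difference from the DMSO mean (vertical axis) of 1 point per library over the genes of chromosome 19, chromosome 9, and chromosome 11 divided at its distal end, with blue for 11 DMSO and red for 16 paclitaxel libraries and black lines at the medians. The groups do not overlap on chromosome 19, the DMSO libraries split on chromosome 9, and 14 paclitaxel libraries lie above all DMSO libraries on distal chromosome 11.

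Other chromosomes moved by unlike amounts between lines. On chromosome 6 Pac A6, Pac C1, Pac G9, Pac H3 and Pac H8 lay between 0.45 and 0.57, against at most 0.06 in DMSO. On chromosome 5, which carries Abcb1b, 9 of 16 paclitaxel libraries lay above every DMSO library, the highest of which was at 0.11. Pac B2, Pac C3, Pac C11, Pac D4, Pac E1 and Pac F10 lay between 0.35 and 0.54, and Pac A6, Pac G9 and Pac H1 between 0.15 and 0.25. The means differed by 0.20 (permutation test, adjusted p = 0.01, with the deposited labels 0.0221). Chromosome 16 also had 9 libraries above every DMSO library, with means that differed by 0.05 (permutation test, adjusted p = 0.0691). On chromosome 3 Pac D4, Pac D7, Pac D10, Pac E1 and Pac F10 lay between 0.34 and 0.55, and the means differed by 0.18 (permutation test, adjusted p = 0.01). That difference was 0.13 with the deposited labels (adjusted p = 0.158). On the X chromosome Pac D4 lay at -0.88. Chromosome 14 differed by -0.11 (permutation test, adjusted p = 0.041), but by -0.03 with the deposited labels (adjusted p = 0.754), where DMSO 12 lay at -0.78.

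**Figure D4:**
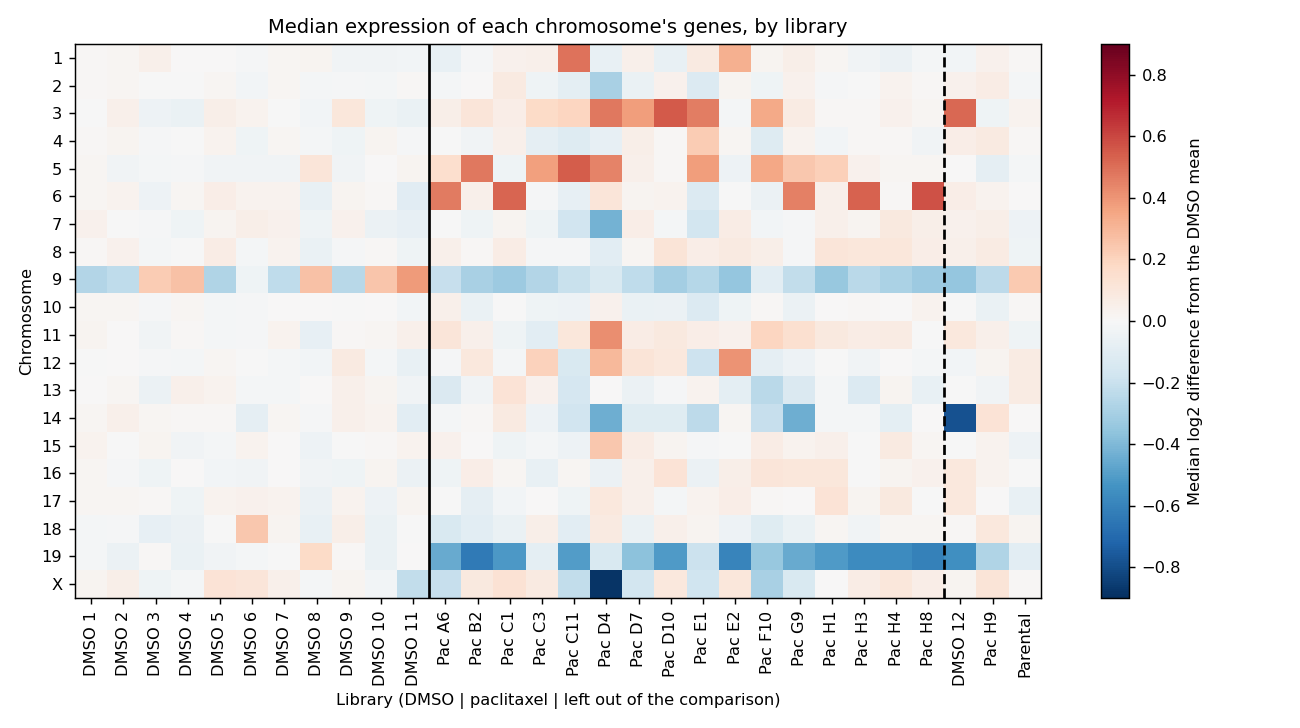
Median log2 difference from the DMSO mean (colour, blue below 0 and red above 0) of the genes of each chromosome (rows) in each library (columns), with 11 DMSO libraries to the left of the solid line, 16 paclitaxel libraries between the lines and the 3 left-out libraries to the right of the dashed line. Chromosome 19 is lower in every paclitaxel library, least so in Pac C3 at -0.09, and in DMSO 12. Chromosome 9 divides the DMSO libraries. Chromosomes 3, 5 and 6 are each high in some paclitaxel libraries, and Pac D4, Pac E1 and Pac F10 are high on both 3 and 5.

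Genes of the pathways that paclitaxel resistance is known for were counted by list, with the shares called over all genes (1.65% higher and 1.7% lower) as the measure. The lists were chosen with earlier results of these data known, so their counts are descriptions. The counts are those of the edgeR quasi-likelihood test. DESeq2 and the likelihood ratio test each called more members in 12 of the 30 lists and fewer in none, and for nuclear respiratory chain subunits both called 9 where the quasi-likelihood test called 4. Of 9 tested ABC efflux pumps, 2 rose and none fell, Abcb1b and Abcb4. Abcb4, a phospholipid exporter next to Abcb1b, had 5 counts in the DMSO libraries and 758 in the paclitaxel libraries, a ratio of 121 (51.5 to 373), with 14 of 16 above the DMSO range. Pac F10 alone held 339 of the 758 counts, and without it the ratio was 74.6 (31.7 to 231). Its fitted log2 fold change was 6.23, and 5.61 with the deposited labels. Of 12 tested tubulins, Tuba1c was called by the edgeR quasi-likelihood test, while DESeq2 called 3 and the likelihood ratio test 2, and 7 were under 0.05 unadjusted. Tuba1c fell by 0.62 ± 0.14 on the log2 scale, from 133 to 217 CPM in DMSO to 60.9 to 166 CPM. That call was lost without DMSO 3, DMSO 6 or DMSO 8, at adjusted p up to 0.0128 in edgeR. It was also lost without the 6 libraries of high first component (0.0141). Tubb3, the neuronal β-tubulin, had a log2 fold change of 2.91 ± 0.74 and an adjusted p of 0.0118, with 7 libraries above and 2 below the DMSO range, at 75.8 CPM in the highest, Pac C3. It was called when Pac A6, Pac C1, Pac G9, Pac H3, Pac H4 or Pac H8 was left out (edgeR adjusted p of 0.00724 to 0.00997). Of 29 microtubule regulators Kif23, a kinesin of the midbody on chromosome 9, was called by the edgeR quasi-likelihood test (-0.74 ± 0.17), where the likelihood ratio test called 2. Its call was lost without DMSO 3 or DMSO 8 (edgeR adjusted p up to 0.0131), with the deposited labels (adjusted p = 0.0102) and without the 6 libraries (adjusted p = 0.0118). None of 30 spindle checkpoint and mitotic genes was called by edgeR, the lowest adjusted p being 0.0337 for Incenp, on chromosome 19, and 0.0378 for Fzr1. At an unadjusted p under 0.05 the list had 6 genes, and DESeq2 called 1.

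Genes of cell death moved singly. Of 10 tested pro-death members of the BCL2 family, Pmaip1 rose and Bad fell, and the median was -0.03. Pmaip1, which encodes NOXA and is also on the p53 list, ran from 2.00 to 24.3 CPM in DMSO (median 14.1) and from 7.49 to 504 CPM in paclitaxel libraries (median 45.0), a log2 fold change of 2.61 ± 0.56 (adjusted p = 0.00308), and 13 of 16 libraries lay above the DMSO range. Pac G9 held 3186 of its 5544 paclitaxel counts, and without that library the log2 fold change was 1.92 (edgeR adjusted p = 0.00453). Without the 6 libraries of high first component the log2 fold change was 1.49 (edgeR adjusted p = 0.0155). Bad, a sensitizer of the BCL2 pathway on chromosome 19, ran from 33.5 to 69.8 CPM and from 13.1 to 47.0 CPM (-1.11 ± 0.19). Of the pro-survival members only Mcl1 and Bcl2 passed the filter on low counts, with log2 fold changes of 0.54 ± 0.30 and 0.64 ± 0.38 and edgeR adjusted p of 0.256 and 0.283, neither under 0.05 unadjusted and neither called by DESeq2. Against DMSO, the 6 libraries of high first component had a log2 fold change of 1.34 for Mcl1, with 5 of 6 above every DMSO library, and the other 10 had one of -0.36. Bcl2 stood at 1.19 in the 6, all above every DMSO library, and at 0.08 in the 10. DMSO 11, which lay among the 6 on that component, held the highest Mcl1 level of the DMSO libraries, 136 CPM, against at most 91.4 CPM in the others. These sets were defined from the expression values themselves, so the values are descriptions and the difference was not tested. Of 20 p53 targets Pmaip1 was the only one called in the edgeR fit.

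Immune lists differed in how far lines shared them. Of 25 tested interferon-induced genes 3 rose, 24 had a positive log2 fold change and the median was 0.94, the highest of the lists with at least 10 tested members. Oasl1 (4.54 ± 1.02), Ifit3 (4.40 ± 1.04) and Ifit2 (3.198 ± 0.76) were carried beyond the DMSO range by 4, 7 and 9 of 16 libraries. Ifit2 and Ifit3 are the 2 genes called higher on chromosome 19. Oasl1 reached 819 CPM in Pac G9, while the paclitaxel median was 16.8 CPM and the highest DMSO library held 26.7 CPM, in DMSO 11. Without Pac G9 none of the 3 was called, and each was also lost without any of several DMSO libraries (edgeR adjusted p up to 0.0179), while Oasl1 was lost without the 6 libraries too (0.0132). Pac G9 held 5176 of the 8644 paclitaxel counts of Oasl1, 2235 of the 3221 of Ifit3 and 1840 of the 2710 of Ifit2. The log2 fold changes without it were 3.76, 3.56 and 2.34. Without DMSO 11 those of Oasl1 and Ifit3 were 5.79 and 4.98. The call of Ifit2 was lost with the deposited labels as well, at a log2 fold change of 2.73 (edgeR adjusted p = 0.018). DESeq2 gave Ifit3 a log2 fold change of 1.96 and did not call it (adjusted p = 0.0475). Of 15 tested genes of MHC class I and peptide loading, Nlrc5, its transactivator, rose (1.70 ± 0.42, edgeR adjusted p = 0.00984). That call was lost in 17 of the 27 fits that left out 1 library (adjusted p up to 0.0207) and with the deposited labels (0.0114). None of 11 class II genes was called, H2-DMb1 having the lowest adjusted p at 0.049 and Ifi30 the next at 0.0562, with 4 genes under an unadjusted p of 0.05 and none called by DESeq2. Of 21 NF-kB targets and immediate early genes, Klf2, a transcription factor of lymphocyte quiescence and homing, fell (-1.28 ± 0.29), a call lost without DMSO 1, DMSO 2 or DMSO 4 (adjusted p up to 0.0138 in edgeR). The list's median was 0.42, on the other side of 0, with 14 of 21 genes positive and 11 under 0.05 unadjusted, and DESeq2 called 3.

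Of 33 tested genes of B-cell identity and receptor signalling none rose and 2 fell, with a median of -0.25. Cd79b, a signalling chain of the B cell receptor, ran from 1184 to 2222 CPM in DMSO and from 518 to 1891 CPM in paclitaxel libraries (-0.70 ± 0.17), and Bank1, a scaffold of that receptor, from 81.6 to 221 CPM and from 31.1 to 153 CPM (-0.95 ± 0.21). Neither was called with the deposited labels (edgeR adjusted p of 0.0132 and 0.025), and neither was called without the 6 libraries of high first component (0.0207 and 0.0249). Bank1 was also lost without DMSO 8 (adjusted p = 0.0114), and Cd79b in 15 of the 27 fits without 1 library (adjusted p up to 0.0177). Of 20 cytokine and chemokine receptors 2 fell. Crlf2, a chain of the receptor for thymic stromal lymphopoietin, ran from 1.15 to 10.6 CPM in DMSO and had 0 counts in 13 of 16 paclitaxel libraries, with 16 of its 18 counts there in Pac F10, a pooled ratio of 15.1 (9.305 to 25.9). Without Pac F10 the ratio was 121 (33.2 to 1008), and the gene did not pass the filter on low counts and was not tested. It did not pass the filter on low counts with the deposited labels. Tnfrsf13c, the receptor for the survival factor BAFF, fell by 1.20 ± 0.25 on the log2 scale, with an adjusted p of 0.00254 in edgeR and of 0.0363 with the deposited labels. The lists of plasma cell, T and NK cell, myeloid, and erythroid and fibroblast markers had 3, 2, 3 and 2 tested genes and no call. Their lowest adjusted p were 0.722 for Mzb1 and 0.843 for Xbp1, 0.46 for Cd3d and 0.828 for Lck, 0.491 for Cd68 and 0.593 for Itgam, and 0.398 for Hbb-bt and 0.933 for Vim. None of these genes was under 0.05 unadjusted in edgeR or called by DESeq2.

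**Figure D5:**
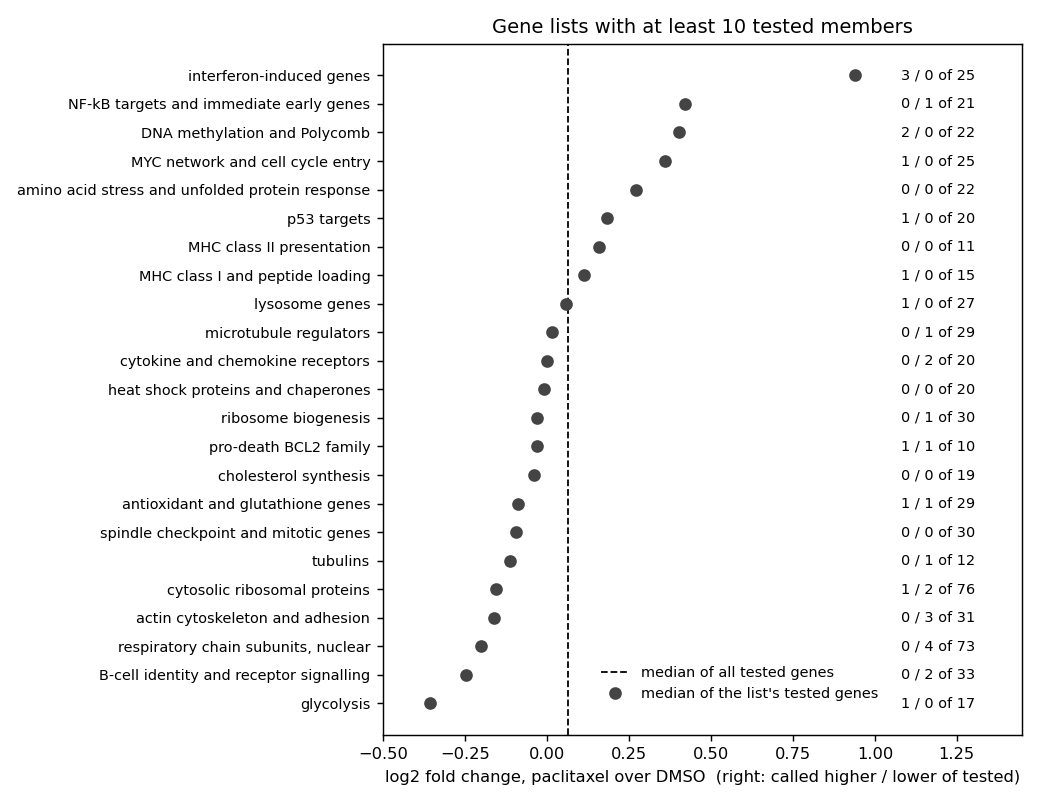
Median log2 fold change of paclitaxel over DMSO (horizontal axis) of the tested genes of each list with at least 10 tested members (rows), with the dashed line at the median of all tested genes, 0.07, and the numbers of genes called higher, called lower and tested at the right. The interferon-induced list lies farthest to the right at 0.94, with 3 of 25 genes called higher. The glycolysis list lies farthest to the left at -0.36, with 1 of 17 called higher. Over all tested genes 1.65% were called higher.

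No list of growth and metabolism held more than 4 calls by the edgeR quasi-likelihood test. Over all tested genes the shares called were 1.65% higher and 1.7% lower. Of 25 genes of the MYC network and cell cycle entry, Ccnd2, cyclin D2, rose (3.90 ± 0.92, adjusted p = 0.007), at 0 to 10.01 CPM in DMSO and 0 to 51.7 CPM in paclitaxel libraries, with 9 of 16 above the DMSO range. The deposited labels gave it a log2 fold change of 2.27 and an adjusted p of 0.12 in edgeR, and its call was lost without any of the DMSO libraries except DMSO 4 and DMSO 11 (adjusted p up to 0.015). DMSO 4 held 61 of its 64 DMSO counts, and without that library the log2 fold change was 7.35 (edgeR adjusted p = 8.25e-05). In 10 of the 16 fits without 1 paclitaxel library it did not pass the filter on low counts. Myc itself ran from 673 to 1124 CPM and from 799 to 3078 CPM, a log2 fold change of 0.47 ± 0.16 with an adjusted p of 0.0626, and Cdkn2a, the gene of the missing p19ARF, had 0 counts in all 27 libraries. Of 30 ribosome biogenesis genes Rrp9, on chromosome 9, fell (-0.51 ± 0.13, edgeR adjusted p = 0.00932), a call lost in 21 of the 27 fits without 1 library (adjusted p up to 0.0266). Of 76 cytosolic ribosomal protein genes, Rpl27 (-0.73 ± 0.16) and Rps25 (-0.75 ± 0.18) fell and Rps19 rose (0.59 ± 0.14), and 60 of the 76 had a negative log2 fold change, with a median of -0.16. Without the 6 libraries of high first component Rpl27 and Rps25 were not called (edgeR adjusted p of 0.0256 and 0.0104). Rps25 was also lost without DMSO 3, DMSO 4, DMSO 6, DMSO 8 or DMSO 10 (up to 0.0166), and Rps19 without DMSO 1, DMSO 2, DMSO 3, DMSO 4, DMSO 8, DMSO 9 or DMSO 10 (up to 0.0149). Rps25 lies on chromosome 9. It overlaps Trappc4 and Ccdc84 on the other strand, and Ccdc84 was called lower too.

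Of 73 nuclear genes of respiratory chain subunits 4 fell and none rose, and 53 had a negative log2 fold change (median -0.20). Cox8a, a subunit of cytochrome c oxidase, ran from 1381 to 2437 CPM in DMSO and from 329 to 1963 CPM in paclitaxel libraries (-1.10 ± 0.19). Cox5a (-1.02 ± 0.18), Atp5g3 (-0.74 ± 0.15) and Ndufb8 (-0.77 ± 0.18) completed the 4. The 6 libraries of high first component were lower for all 4, with log2 fold changes of -1.74, -1.81, -1.36 and -1.33 in this order, against -0.82, -0.69, -0.47 and -0.52 in the other 10. DMSO 11, placed with the 6 on that component, was the lowest DMSO library for Cox8a, Atp5g3 and Ndufb8, and the part of this component in the result was not tested. Ndufb8 was lost without the 6 libraries (edgeR adjusted p = 0.0198), and in 10 of the 27 fits without 1 library (up to 0.0147). Cox8a and Ndufb8 lie on chromosome 19 and Cox5a on chromosome 9. None of 7 tested mitochondrially encoded genes was called, mt-Nd1 having an adjusted p of 0.0413 and a log2 fold change of -0.74, and mt-Nd6 an adjusted p of 0.186, with 2 genes under 0.05 unadjusted in edgeR and none called by DESeq2. Without the 3 libraries of over 10% mitochondrial counts the log2 fold change was -0.79 for mt-Nd1 (edgeR adjusted p = 0.0385) and -0.60 for mt-Nd6 (0.0902). Of 17 glycolysis genes Slc2a3, a glucose transporter, rose (0.86 ± 0.21, adjusted p = 0.00893) with 14 libraries above and 1 below the DMSO range, while the list's median was -0.36. That call was lost with the deposited labels (edgeR adjusted p = 0.0154) and in 16 of the 27 fits without 1 library (up to 0.0192).

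Of 29 antioxidant and glutathione genes Gsto1 fell, as given above, and Gstm1, a mu-class glutathione transferase, rose from 0.753 to 10.1 CPM in DMSO (median 1.77) to 1.59 to 78.9 CPM (median 31.04), a log2 fold change of 3.44 ± 0.56 with 12 of 16 libraries above the DMSO range. Without the 6 libraries of high first component that log2 fold change was 2.72. Of 27 lysosome genes Lrpap1, a chaperone of the endoplasmic reticulum, rose (1.22 ± 0.17, adjusted p = 1.85e-05), carried by 14 libraries. Of 22 genes of DNA methylation and Polycomb, Rnf2 and Dnmt3b, a de novo DNA methyltransferase, rose, the latter from 0.5004 to 6.203 CPM in DMSO to 0.871 to 19.1 CPM (1.42 ± 0.34). Dnmt3b was lost in 14 of the 27 fits without 1 library (edgeR adjusted p up to 0.0156) and without the 6 libraries (0.104). Of 31 genes of the actin cytoskeleton and adhesion 3 fell and none rose, and 27 had a negative log2 fold change. They were Cfl1, cofilin, on chromosome 19 (-0.76 ± 0.14), S100a6, a calcium-binding protein (-3.28 ± 0.62), and Arpc2, a subunit of the ARP2/3 complex that branches actin (-0.53 ± 0.11). S100a6 ran from 36.9 to 701 CPM in DMSO (median 164) and from 1.28 to 144 CPM in paclitaxel libraries (median 10.1), and 11 of 16 lay below the DMSO range. No gene was called by edgeR among 22 genes of amino acid stress and the unfolded protein response, 20 heat shock proteins and chaperones, and 19 genes of cholesterol synthesis. The lowest adjusted p of the first 2 lists were 0.0569 for Dnajb9 and 0.0591 for Phgdh, and 0.0313 for Stip1, on chromosome 19, and 0.112 for Hspa4, and Insig1 of the cholesterol list had an adjusted p of 0.141. At an unadjusted p under 0.05 these lists had 5, 5 and 4 genes, and DESeq2 called none. Stip1 was called lower when Pac E1 was left out (edgeR adjusted p = 0.00617), and also without Pac C3 and DMSO 11 together.

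Large changes were not always shared. Besides Oasl1 and Ifit3, the called protein-coding genes with the largest fold changes that fewer than 9 libraries carried were Ephx1 and Zeb1. Ephx1, microsomal epoxide hydrolase, ran from 0 to 4.43 CPM in DMSO (median 0.377) and from 0.234 to 126 CPM in paclitaxel libraries (median 3.53), a log2 fold change of 3.73 ± 0.89, and 6 of 16 lay above the DMSO range. Its call was lost with the deposited labels (edgeR adjusted p = 0.0107) and without any of the DMSO libraries except DMSO 8 and DMSO 11 (up to 0.0153). Pac G9 held 799 of its 1023 paclitaxel counts, and Ephx1 did not pass the filter on low counts without that library, nor in 9 of the other 15 fits without 1 paclitaxel library, so it was not tested there. Zeb1, a transcription factor that represses epithelial genes and acts in lymphocytes, ran from 0 to 12.7 CPM in DMSO (median 0) and from 5.42 to 24.3 CPM in paclitaxel libraries (median 10.6), a log2 fold change of 3.31 ± 0.64. DMSO 5 alone held 12.7 CPM and the other 10 DMSO libraries at most 0.827 CPM, so that 7 libraries lay above the whole range although each of the 16 lay above those 10. Without DMSO 5 its log2 fold change was 5.61.

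The paclitaxel libraries differed in how many of the shared changes they carried, which the rule on most lines had a part in choosing. Of the 130 genes higher in most lines, Pac C1, the shallowest library, lay above all DMSO libraries in 63 and Pac G9 in 116. Of the 131 lower genes, Pac C1 and Pac H4 lay below in 86 each and Pac F10 in 120. The fit was also repeated without each library in turn, and the library left out was placed on either side of the midpoint between the 2 group means of log2 CPM. A paclitaxel library lay on the paclitaxel side for 54.1% (Pac C1) to 86.6% (Pac G9) of the calls it had no part in, where the same share over all tested genes was 45.5% and 69.4%. A DMSO library lay on the DMSO side for 50.5% (DMSO 11) to 97.4% (DMSO 2) of such calls, against 39.2% and 68.3% over all tested genes. For DMSO 5 the share was 65.7%, against 62.3% over all tested genes. Without DMSO 11 the calls numbered 227 higher and 195 lower.

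The 6 libraries of high first component and the other 10 were each compared with the 11 DMSO libraries, which both comparisons share. The 6 gave 1453 higher and 1427 lower calls of 10087 tested, and the 10 gave 235 and 188 of 9096. The 2 sets were drawn from these same expression values, so these counts are descriptions. Of the genes higher in most lines, 115 of the 115 tested in the 10 and 119 of the 120 tested in the 6 had a positive log2 fold change, with medians of 0.99 and 1.01. Of the lower genes, 130 of 130 and 131 of 131 had a negative one, with medians of -0.84 and -1.33. Maoa, for example, had log2 fold changes of -8.17 in the 10 and -7.79 in the 6, and Fam111a of -0.61 and -1.25. Since all 16 libraries chose these genes, the signs describe them and do not test them.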

How the data were processed

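RNA was measured by 3′ digital gene expression in 30 libraries, of which 27 entered the comparison. Per the methods of the study, the authors aligned reads to GRCm38 with STAR 2.5.1b and deposited raw counts per gene (55401 genes, not normalized). Whether molecular identifiers were collapsed and whether counting used strand are not given in the sources used here. Gene symbols and positions came from gencode M21, matched by identifier for 55141 genes, where the methods name a later release.

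Counts were filtered with filterByExpr (minimum count 10), scaled by TMM and tested with edgeR 4.0.16 in R 4.3.3 by the quasi-likelihood F test, 11 DMSO against 16 paclitaxel libraries, with Benjamini-Hochberg adjustment and an adjusted p under 0.01. The script was tested on simulated data. DESeq2 1.42.0 was an alternative. No pair of libraries within either group had like counts within sampling noise (lowest chi-square per gene 5.735). Pairs across the groups and pairs with a left-out library were not compared. P-values measure the spread between lines. Chromosome medians used genes with a mean of at least 20 CPM on the log2(CPM + 1) scale and were tested by permutation in Python 3.11.15 (scipy 1.17.1 and numpy 2.4.6). Those tests and the split of chromosomes 11 and 19 were added after the values were seen. Counting intervals are exact 95% intervals and cover counting error only.

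The comparison and its gene lists were chosen with earlier results of these data known. Genes named are the 12 in each direction that the most libraries carried beyond the DMSO range (protein-coding, by p where tied), up to 4 called genes of each list or the 2 of lowest p where none was called, Abcb1a, Abcb1b, Tubb3, Myc and Cdkn2a, and the 4 called genes of largest fold change carried by fewer than 9 libraries. Ccdc84, marker genes and overlapping partners are named besides. A gene that this rule names is not reported here.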

Additional observations from a re-analysis of the deposited data

Results flagged for a closer look

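The 3 libraries outside the comparison carried some of its changes. None of them entered the comparison of 11 DMSO with 16 paclitaxel libraries, while DMSO 12 and Pac H9 entered the fit by the deposited labels. Of the 130 genes higher in most paclitaxel lines, the library labelled DMSO 12 lay above all 11 DMSO libraries in 84, the library labelled Pac H9 in 71 and the library labelled Parental in 31. Of the 131 lower genes they lay below all 11 in 80, 66 and 16. Among the 16 paclitaxel libraries compared, the lowest such counts were 63 and 86. Those 16 had a part in choosing these genes and the 3 left-out libraries had none, so the counts are not alike. The same counts over all tested genes were not taken, so how many genes any further library would carry is not known here. Maoa stood at 2.03 CPM in DMSO 12 and 17.2 CPM in Pac H9, and Abcb1b at 70.4 and 26.3 CPM.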

How the results depend on the processing

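All 4 counts, of genes called higher (158), called lower (163), higher in most lines (130) and lower in most lines (131), stayed within 1.5 times with RLE size factors, without a filter on low counts, with a minimum count of 20, with log10 totals as a covariate, without the 2 libraries under 1000000 counts and without the 3 libraries of over 10% mitochondrial counts. The likelihood ratio test gave 280 called higher, 285 called lower and 209 lower in most lines. In the order above, DESeq2 gave 343, 287, 216 and 211, thinning to 480919 counts per library gave 93, 99, 72 and 77, and an adjusted p under 0.05 gave 480, 420, 254 and 266. Without Pac C3 and DMSO 11 there were 256 called higher, with 238 higher and 212 lower in most lines. The deposited labels gave 94 called higher, with 67 higher and 77 lower in most lines. Without the 6 libraries of high first component 199 were higher in most lines. This setting and the one without the 3 mitochondrial libraries were chosen after seeing the data. The cause of these moves was not tested, except that thinning also left 5258 genes to test. Leaving out 1 library at a time gave 101 to 227 called higher, 116 to 201 called lower, 92 to 202 higher in most lines and 96 to 173 lower in most lines. The count called higher moved by over 1.5 times without DMSO 1 (101), DMSO 2 (105) or DMSO 8 (104), and the count higher in most lines without DMSO 11 (202). Of the 80 named genes tested, 56 were called, and none of these changed direction in any setting that tested it. Of the others Mcl1, Xbp1, Cd68 and Vim did, in at least 1 setting each. Of the 56, 37 stayed called in all 27 fits without 1 library, 18 lost their call in at least 1, and Crlf2 could not be tested without Pac F10. Those fits lost between 0 and 15 calls each, the most without DMSO 8. Calls lost numbered 13 without the 6 libraries, 10 with the deposited labels, 9 after thinning, 7 without a filter, 7 without the 3 mitochondrial libraries and at most 3 in each other setting that did not leave out 1 library. Beside these losses, 21 of the 56 were not tested after thinning, 6 without the 6 libraries, 5 with a minimum count of 20, 2 without the libraries under 1000000 counts, and 1 each with the deposited labels and without the 3 mitochondrial libraries. The difference in library totals had the same direction on the raw scale (permutation test, p = 0.1895). No paired analysis was possible because the DMSO libraries are numbered and the paclitaxel libraries are named by well, so the groups share no replicate number. Depth limits genes of a few CPM, which the shallowest library, at 480919 counts, covers with 1 or 2 tags.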
